A study of Canis lupus familiaris with 6 samples.

Results

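The caspase, BCL2 and apoptosis genes are the genes on the array whose symbol names a caspase, a member of the BCL2 family, an inhibitor of apoptosis, or a protein of the apoptosome, of the mitochondrial release or of the death receptor complex. The rule uses the symbol alone and no measured value, but it was set with earlier results of these data known. Of 43603 probes that are no controls, 62 carried such a symbol, and they stood for 40 of 13684 symbols. A total of 60 probes of 38 genes passed the filter on low intensity and were tested, beside 13193 symbols in all. The probes of CASP16 and FASLG did not pass it, and no channel had them well above background. No probe carried the symbols CASP1, CASP5, CASP13, FAS, FADD, BBC3, BIK, BOK, BCL2L10, BCL2L12, BIRC7 or AIFM3, and these genes were not analysed here. Where a gene had several probes, which was so for 15 genes, its brightest probe gives the value and the other probes are named where they differ.

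The RNA came from 3 canine mammary tumor cell lines, P114, CMT-U27 and CMT-U309, each grown alone (monoculture) or with myeloid-derived suppressor cells (MDSCs) in a culture insert (co-culture). The MDSCs had been sorted from the blood of healthy dogs, and the insert kept them apart from the tumor cells. The sample descriptions give at least 72 h of co-culture, and the methods give a shorter time. Each line gave 1 co-culture RNA and 1 monoculture RNA, which were hybridized together on 2 arrays with the dyes exchanged (a dye-swap), so that there were 6 arrays and 12 channels in all.

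Caspases are proteases that cut other proteins and so take the cell apart. Initiator caspases are switched on by a complex of proteins, either under a death receptor at the cell surface or around cytochrome c that has left the mitochondria, and they cut and activate the executioner caspases. Whether the mitochondria open is set by the BCL2 family, in which survival proteins hold back the pore-forming BAX and BAK1, and BH3-only proteins free them. In mammary epithelium this machinery removes the milk-producing cells after weaning.

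The level of a gene is given as the log2 processed signal of its probe, and the ratio as the log2 of co-culture over monoculture. Levels of different probes cannot be compared with each other. Between 53.0% and 81.0% of spots were well above background in a channel, meaning that the scanner software set the signal apart from the spread of the background. Although both arrays of a line hold the same pair of RNAs, across 40701 probes their ratios correlated at -0.39 for P114, 0.26 for CMT-U27 and -0.09 for CMT-U309. Over the 20602 probes well above background in all channels the values were -0.14, 0.44 and 0.24 in that order. The direction of each ratio follows the dyes stated in the labels, and because the arrays of P114 went against each other the co-culture results are given with and without P114. Of 9 epithelial markers tested, 6 were higher in CMT-U27 than in P114. Against CMT-U309, 6 were higher in CMT-U27 and 1, KRT14, was lower by a log2 value of 1.53. Of 9 mesenchymal markers 8 were lower in CMT-U27 than in each of the other lines. Of 13 myeloid markers, none passed an unadjusted p under 0.05 for co-culture (limma), and no channel had ITGAM, LYZ or SPI1 well above background. Pooled over the lines, the summed myeloid level lay between 10.5 and 13.7 on the log2 scale in co-culture and between 10.6 and 13.0 in monoculture. S100A8 alone had a mean level of 13.06 in CMT-U27, beside 8.75 in P114 and 6.50 in CMT-U309. Its co-culture ratios were 0.89 and 0.82 in CMT-U27 and lay between -0.73 and 0.14 in the other lines. Of 4 endothelial markers tested 2 were higher, and of 6 lymphoid markers 1 was lower, at that p in co-culture. The part of cell type markers in the results below was not tested.

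Co-culture was compared with monoculture to find which genes the tumor cells change beside MDSCs. No member passed the thresholds of the methods, a fold change over 2 together with an unadjusted p under 0.05, where 0.834% of all 13193 genes did. At an unadjusted p under 0.05 with no demand on the fold, 4 of 38 members passed (10.5%, against 9.45% of all genes), and all 4 were higher in co-culture. They were BCL2L2 and BCL2L1, which are survival proteins, BAK1, which forms pores, and BCL2L11 (BIM), a BH3-only protein. The smallest adjusted p among the members was 0.50 with the Benjamini-Hochberg adjustment in limma. The median log2 ratio of the members was 0.0016, beside 0.0013 over all genes, and the median size of a ratio was 0.14, beside 0.17. A fit across the lines has only 3 values per gene, and its p-values measure the spread between these cultures. In RNA of a whole culture, fewer cells with a transcript and less transcript per cell cannot be told apart.

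**Figure D1:**
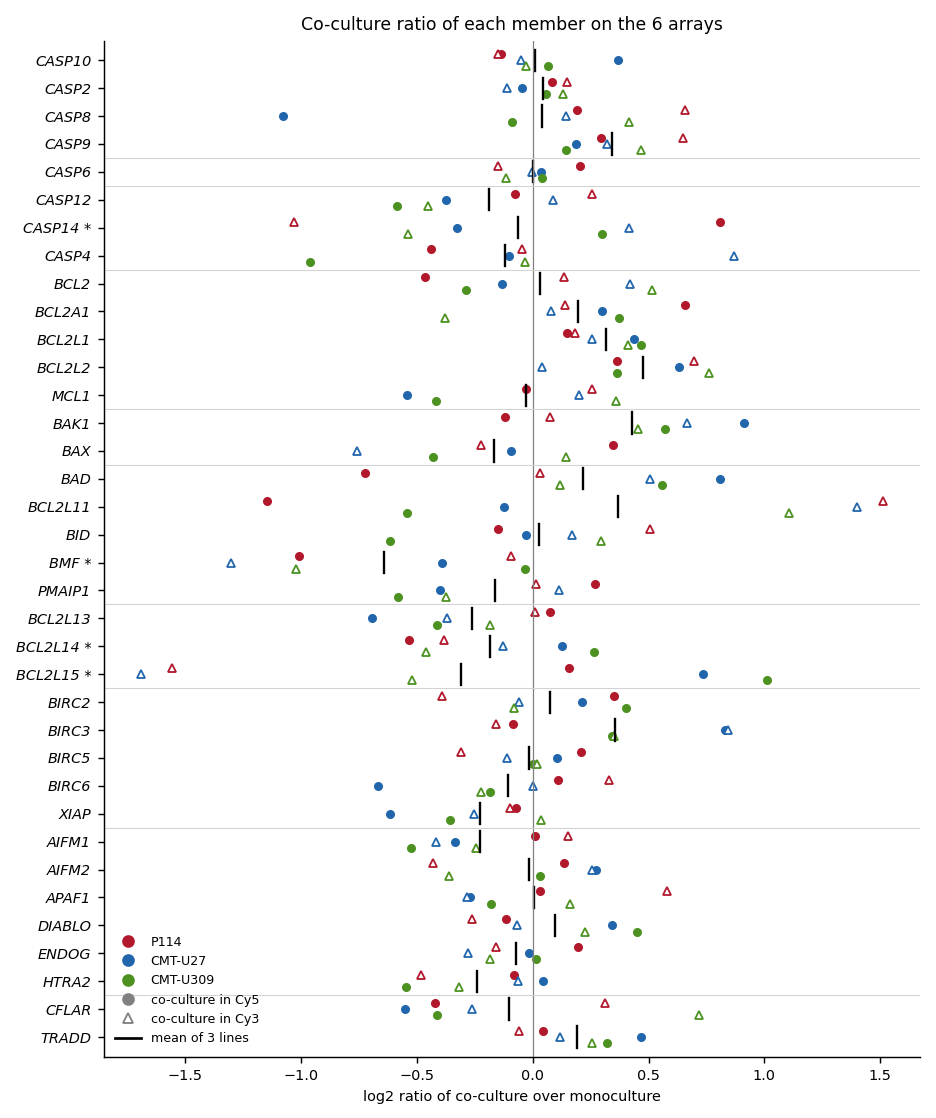
Log2 ratio of co-culture over monoculture (x axis) of 36 of the 38 members (y axis, ordered by role, grey lines between roles). Filled circles are arrays with co-culture RNA in Cy5 and open triangles those with it in Cy3, colors are the lines, black bars are the mean of the 3 lines, and an asterisk marks members not well above background in all 12 channels. BCL2L1 and BCL2L2 lie right of 0 on all 6 arrays, whereas the points of BCL2L11 part by dye, with circles between -1.15 and -0.13 and triangles between 1.11 and 1.51.

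The sign of the ratio held on all 6 arrays for 4 of 38 members (10.5%, against 4.56% of all genes). These were CASP9, BCL2L1 and BCL2L2, with higher values in co-culture, and BMF, with lower values but with a signal well above background in only 3 of 12 channels. The arrays of a dye-swap had opposite signs for 15 of 33 members of the P114 arrays, 15 of 33 of the CMT-U27 arrays and 16 of 33 of the CMT-U309 arrays, counting the members that were well above background in all 12 channels. Over all genes of that kind, the shares with opposite signs were 56.1%, 32.6% and 42.4% in that order of lines.

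Without P114, 8 of 38 members passed an adjusted p under 0.05 (21.1%, against 16.7% of all genes, limma on 2 lines). BAK1, BIRC3, BAD, BCL2L11, BCL2L2 and BCL2L1 had mean log2 ratios between 0.39 and 0.65 over the remaining lines. BCL2L13 and AIFM1 had means of -0.42 and -0.38. The arrays of BCL2L11 parted by dye, with -0.13 and 1.40 in CMT-U27 and -0.54 and 1.11 in CMT-U309. The BCL2L2 mean came from its brightest probe, whose design accession belongs to the neighboring gene PABPN1. The other BCL2L2 probe had mean ratios of -0.17 in CMT-U27 and -0.13 in CMT-U309. BIRC3, an inhibitor of apoptosis, rose by 0.59 (SE 0.13, adjusted p = 0.010). None of the 8 reached a fold change over 2.

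Between the lines many members differed in level. Of 38 members, 22 passed an adjusted p under 0.05 and a fold change over 2 in at least 1 pair of lines (57.9%, against 42.2% of all genes). CMT-U27 had the higher level of 12 members against P114, among them CASP2, BCL2, BID and MCL1, where 15.4% of all genes were higher, and of 11 members against CMT-U309, where 17.9% were. CMT-U27 had the lower level of 3 members against P114 (CASP8, BCL2L1 and BAX), where the share over all genes was 11.3%. Against CMT-U309 it had the lower level of 4 members (CASP12, CASP8, CASP4 and BCL2L1), where that share was 14.0%. P114 was above CMT-U309 for 4 members (BAX, CASP10, AIFM1 and BCL2L1, 7.31% of all genes) and below it for 3 (AIFM2, CASP12 and PMAIP1, 8.03% of all genes). With each channel scaled to its 75th percentile this split became 2 above and 3 below, and with loess and Aquantile scaling 3 above and 4 below.

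**Figure D2:**
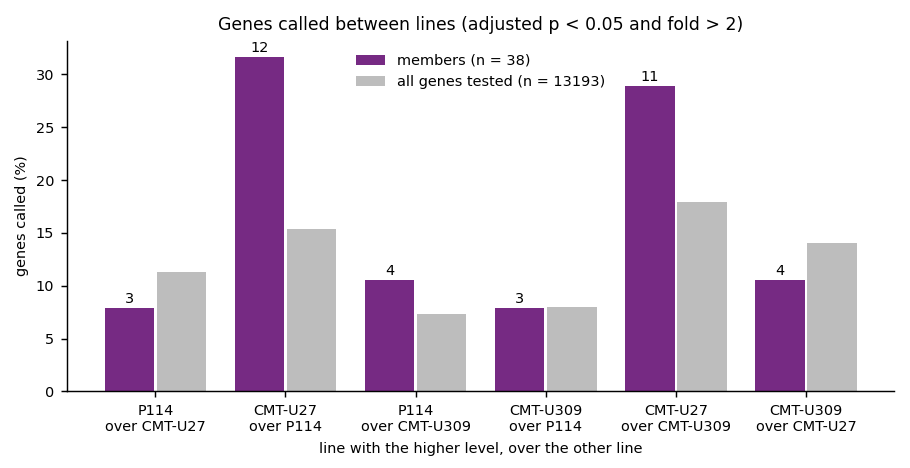
Share of genes called in each pair of lines (y axis, percent of genes with an adjusted p under 0.05 and a fold over 2), by the line with the higher level (x axis). Purple bars are the 38 members, with the number called above the bar, and grey bars are all 13193 genes. The members exceed the grey bars by most where CMT-U27 is the higher line, with 31.6% against 15.4% over P114 and 28.9% against 17.9% over CMT-U309.

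By the brightest probe of each gene, BCL2L1 alone differed in all 3 pairs (1 of 38, against 4.49% of all genes). Its difference between P114 and CMT-U309 fell under a fold change of 2 with loess and Aquantile, with normexp and at the 75th percentile, and that between CMT-U27 and CMT-U309 did so without the arrays of replicate 1 and with the median over its probes. The median log2 difference of the members was -0.35 for P114 minus CMT-U27 and 0.61 for CMT-U27 minus CMT-U309, beside 0.039 and 0.078 over all genes. Among those well above background in all 12 channels the contrast was smaller. There the medians were -0.29 and 0.55 for 33 members, beside -0.11 and 0.24 for 7907 genes. Each line had its 2 arrays on a slide of its own, so line and slide cannot be told apart, and the spread within a line comes from its 2 RNAs, which differ by culture. The median difference over all probes moved with the scaling, from 0.15 for P114 minus CMT-U27 to 0.29 at the 75th percentile and 0.06 with loess and Aquantile. No called difference turned its sign under these scalings. With the background corrected by normexp, 16 of the 37 called differences were still past the thresholds.

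**Figure D3:**
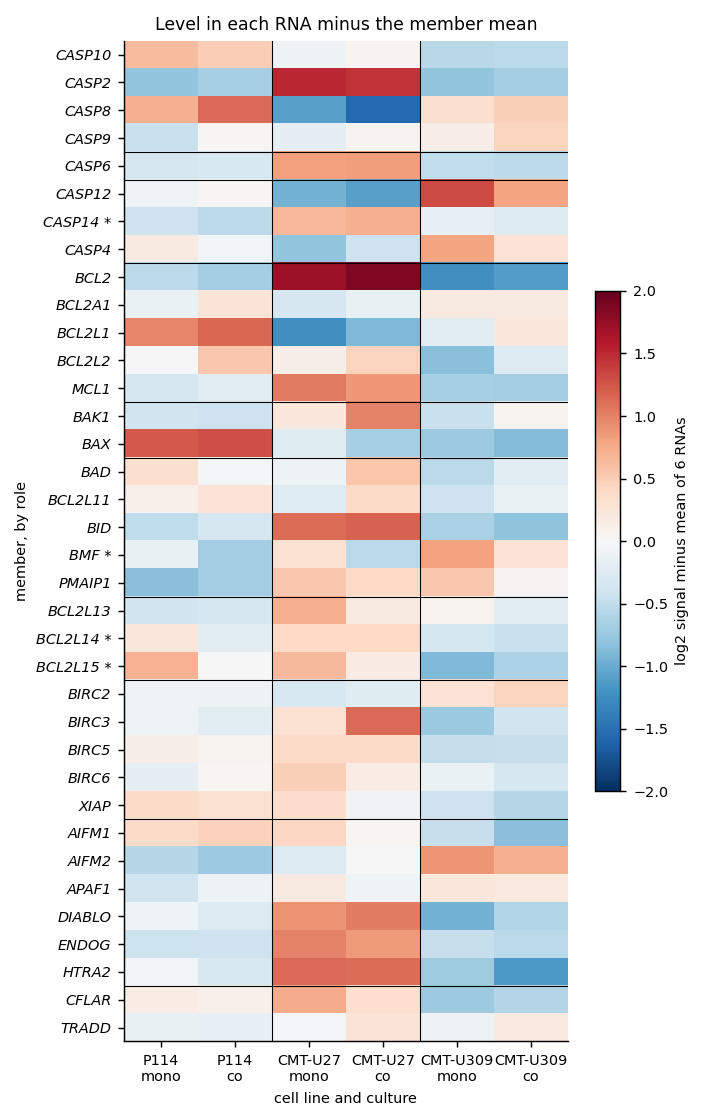
Level of 36 of the 38 members in the 6 RNAs (columns, monoculture and co-culture of each line), as log2 signal minus the mean of that member over the 6 RNAs (color). Members are ordered by role with black lines between roles, and an asterisk marks those not well above background in all 12 channels. Both CMT-U27 columns lie above the other 4 for CASP2, BCL2, BID and HTRA2.

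Among the initiator caspases, CASP2 was far higher in CMT-U27. CASP2 acts in the response to DNA damage and to faulty cell division. Its log2 level was 11.53 and 11.41 in the co-culture and monoculture RNA of P114, 13.63 and 13.71 in those of CMT-U27, and 11.49 and 11.40 in those of CMT-U309. The groups of CMT-U27 and of the other lines did not overlap, and its level was 4.61-fold that of P114 (adjusted p = 6.8e-07) and 4.67-fold that of CMT-U309 (adjusted p = 5.59e-07, limma). All 4 CASP2 probes were called in both pairs, with log2 differences between 1.51 and 2.20 against P114 and between 1.17 and 2.32 against CMT-U309. CASP8, the initiator under the death receptors, was instead lowest in CMT-U27, with 8.37 and 7.94 in co-culture and monoculture of P114, 5.68 and 6.15 in CMT-U27, and 7.72 and 7.56 in CMT-U309. It was 4.72-fold higher in P114 than in CMT-U27 (adjusted p = 3.2e-05) and 3.30-fold higher in CMT-U309 than in CMT-U27 (adjusted p = 0.00016), while P114 and CMT-U309 differed by a log2 value of 0.52 (SE 0.23, adjusted p = 0.12).

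A probe of each of these genes is shown because both genes were called between CMT-U27 and each of the other lines. The CASP2 probe shown is the one at chr16:9372698-9372757 and the CASP8 probe lies at chr37:13401604-13401663, on the minus and the plus strand of the canFam2 build. Both were designed on a transcript and read through without a stop codon in 1 frame. No letter is marked.
CASP2: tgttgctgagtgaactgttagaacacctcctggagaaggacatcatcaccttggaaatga
CASP8: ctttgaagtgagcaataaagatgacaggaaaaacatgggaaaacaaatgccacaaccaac
This CASP2 probe had a mean level of 7.16 (P114), 9.15 (CMT-U27) and 7.11 (CMT-U309).

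CASP10, a close relative of CASP8, had levels of 7.23 and 7.38 in co-culture and monoculture of P114, 6.79 and 6.63 in CMT-U27, and 6.21 and 6.19 in CMT-U309. It was 2.15-fold higher in P114 than in CMT-U309 (adjusted p = 0.0021, limma). CASP9, the caspase of the apoptosome, had mean levels of 6.58 ± 0.33 (P114), 6.72 ± 0.18 (CMT-U27) and 7.08 ± 0.22 (CMT-U309), each with the SD of n = 2 RNAs, and no pair passed the thresholds. Its co-culture ratio was above 0 on every array, at 0.29 and 0.65 in P114, 0.19 and 0.32 in CMT-U27, and 0.14 and 0.47 in CMT-U309. The higher value of each line came from the array with co-culture RNA in Cy3. The mean of the lines was 0.34 (SE 0.16, limma adjusted p = 0.50). CASP8 had ratios of 0.19 and 0.66 in P114, -1.08 and 0.14 in CMT-U27, and -0.09 and 0.42 in CMT-U309, so that its mean of 0.04 covers lines at 0.42 and -0.47. The mean ratio of CASP10 was 0.01, and those of the 4 CASP2 probes lay between -0.09 and 0.13.

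CASP6, an executioner caspase, was higher in CMT-U27. Its level was 11.60 and 11.57 in co-culture and monoculture of P114, 12.73 and 12.72 in CMT-U27, and 11.38 and 11.42 in CMT-U309. CMT-U27 did not overlap the other lines and was 2.21-fold above P114 (adjusted p = 5.97e-05) and 2.52-fold above CMT-U309 (adjusted p = 1.72e-05, limma). The co-culture ratios of CASP6 were 0.20 and -0.15 in P114, 0.03 and 0.00 in CMT-U27, and 0.04 and -0.12 in CMT-U309, with a mean of 0.00.

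The inflammatory caspases ran the other way. CASP12 had levels of 6.28 and 6.19 in co-culture and monoculture of P114, 5.17 and 5.32 in CMT-U27, and 7.04 and 7.56 in CMT-U309. It was 4.17-fold higher in CMT-U309 than in CMT-U27 (adjusted p = 4.44e-05) and 2.10-fold higher than in P114 (adjusted p = 0.0057, limma). CASP4, which senses bacterial lipopolysaccharide in the cytosol, had 5.51 and 5.75 in P114, 5.15 and 4.77 in CMT-U27, and 5.86 and 6.35 in CMT-U309, and was 2.21-fold higher in CMT-U309 than in CMT-U27 (adjusted p = 0.0064). The ratio of CASP12 was -0.07 and 0.25 in P114, -0.37 and 0.09 in CMT-U27, and -0.59 and -0.45 in CMT-U309, with a mean of -0.19 (limma adjusted p = 0.70). CASP14, a caspase of the skin, was well above background in 2 of 4 channels of CMT-U27, 2 of 4 of CMT-U309 and none of P114. It was called between CMT-U27 and P114, but the bound is only at least 1.07-fold, and its direction turned without the arrays of replicate 2.

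The survival proteins of the BCL2 family split between the lines. BCL2 itself had levels of 9.66 and 9.83 in co-culture and monoculture of P114, 12.20 and 12.06 in CMT-U27, and 9.24 and 9.12 in CMT-U309. It was 5.21-fold higher in CMT-U27 than in P114 (adjusted p = 6.95e-07) and 7.71-fold higher than in CMT-U309 (adjusted p = 1.34e-07, limma), and the latter was the largest fold change among the brightest probes of the members. A dim BCL2 probe was well above background in 2 of 12 channels, both of CMT-U27. BCL2L1, which encodes BCL-XL, was instead lowest in CMT-U27, with 13.40 and 13.23 in P114, 11.37 and 11.02 in CMT-U27, and 12.46 and 12.03 in CMT-U309. The 3 lines did not overlap, and P114 was 4.35-fold above CMT-U27 (adjusted p = 1.05e-06) and 2.10-fold above CMT-U309 (adjusted p = 0.00026), which in turn was 2.07-fold above CMT-U27 (adjusted p = 0.00013). MCL1, a survival protein with a short life, followed BCL2, and was 2.34-fold higher in CMT-U27 than in P114 and 3.08-fold higher than in CMT-U309. BCL2A1 had mean levels of 11.04, 10.74 and 11.15 in P114, CMT-U27 and CMT-U309, and no pair was called.

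The co-culture ratio of BCL2L1 was 0.15 and 0.18 in P114, 0.44 and 0.26 in CMT-U27, and 0.47 and 0.41 in CMT-U309. All 6 values were above 0, and those of P114 were the smallest. The mean was 0.32 (SE 0.11, limma adjusted p = 0.50), and 0.39 without P114 (SE 0.09, adjusted p = 0.015). The other BCL2L1 probe lies at chr24:24165280-24165339 on the minus strand of canFam2 and reads through without a stop codon in 2 frames. It was well above background in 9 of 12 channels and is printed here because its values differ from those of the brightest probe.
BCL2L1: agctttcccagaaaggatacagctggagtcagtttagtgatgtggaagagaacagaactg
Its ratios were -1.33 and -0.35 in P114, 0.58 and 0.40 in CMT-U27, and 0.65 and 0.55 in CMT-U309, with a mean of 0.08. Its levels gave the same order of lines, with 5.96, 4.31 and 4.95 in P114, CMT-U27 and CMT-U309, and the difference between P114 and CMT-U27 was called (3.14-fold, adjusted p = 0.0046). The median over the probes of BCL2L1 gave a ratio of 0.20 (limma adjusted p = 0.71).

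BCL2L2, which encodes the survival protein BCL-W, had the smallest co-culture p of the members, but its probes differed. The brightest probe had ratios of 0.36 and 0.70 in P114, 0.63 and 0.04 in CMT-U27, and 0.37 and 0.76 in CMT-U309, with a mean of 0.48 (SE 0.12, limma adjusted p = 0.50). The other probe had ratios of 0.00 and -0.23 in P114, -0.42 and 0.08 in CMT-U27, and -0.28 and 0.03 in CMT-U309, with a mean of -0.14 (limma adjusted p = 0.76). Of 23 member probes whose design accessions could be looked up in the RefSeq gene table, 22 had an accession of their own symbol. The exception was the brightest BCL2L2 probe, of which the accession found there belongs to PABPN1, the neighboring gene for a nuclear poly(A)-binding protein. On canFam2 this probe lies at chr8:6589135-6589194, which is 1593 and 1600 bases beyond the ends of the PABPN1 probes and 15277 bases beyond the other BCL2L2 probe, at chr8:6573799-6573858. The signal of a probe does not tell which of the neighboring transcripts it measured, and the gene behind this ratio is therefore uncertain.

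The probe built on the BCL2L2 mRNA is printed here, on the plus strand, since its accession in the gene table is that of BCL2L2.
BCL2L2: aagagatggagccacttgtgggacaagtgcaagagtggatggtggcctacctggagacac
It was well above background in 11 of 12 channels. Its mean levels were 6.39 (P114), 5.04 (CMT-U27) and 7.44 (CMT-U309), and all 3 pairs were called, with CMT-U309 5.28-fold above CMT-U27 (adjusted p = 7.09e-06, limma). The brightest probe had 9.88, 9.88 and 9.05, so that CMT-U309 was lowest. The PABPN1 probes also had their lowest level in CMT-U309, with 13.07, 12.80 and 12.16 for the probe 1600 bases away and 13.34, 13.03 and 12.36 for the probe 1593 bases away. Their mean co-culture ratios were 0.09 and 0.10 (limma adjusted p = 0.76 and 0.74).

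**Figure D4:**
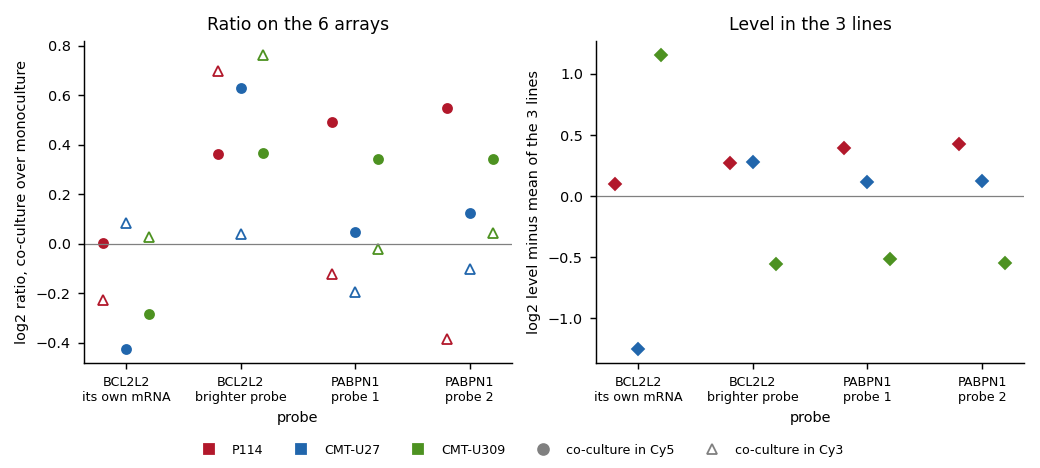
Left, log2 ratio of co-culture over monoculture on the 6 arrays (y axis) for the BCL2L2 probe built on its own mRNA, the brighter BCL2L2 probe and the PABPN1 probes (x axis), with filled circles for co-culture RNA in Cy5 and open triangles for Cy3. Right, mean level in each line minus the mean of the 3 lines for the same probes. The brighter BCL2L2 probe is above 0 on all 6 arrays and has its lowest level in CMT-U309, as the PABPN1 probes do, whereas the probe on the BCL2L2 mRNA has its highest level there.

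Of the pore-forming proteins, BAX was highest in P114. Its level was 10.69 and 10.62 in co-culture and monoculture of P114, 8.74 and 9.16 in CMT-U27, and 8.53 and 8.68 in CMT-U309. P114 was 3.26-fold above CMT-U27 (adjusted p = 1.74e-05) and 4.15-fold above CMT-U309 (adjusted p = 9.22e-06, limma), and the lower lines differed from each other by a log2 value of 0.35 (adjusted p = 0.11). The other BAX probe, at chr1:110312436-110312495 on the minus strand of canFam2, gave 2.89-fold and 2.98-fold, and is shown since both probes agree on the order.
BAX: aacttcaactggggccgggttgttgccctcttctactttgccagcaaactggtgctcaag
BAK1, its partner in opening the mitochondria, was 2.02-fold higher in CMT-U27 than in P114 (adjusted p = 0.0019), a fold at the threshold that was lost under normexp, under loess and Aquantile scaling, at the 75th percentile, without the arrays of replicate 2, and without replicate 2 of P114. Its co-culture ratios were -0.12 and 0.07 in P114, 0.91 and 0.67 in CMT-U27, and 0.57 and 0.46 in CMT-U309. The values of P114 lay around 0 and the other 4 were all higher. The mean was 0.43 (SE 0.16, limma adjusted p = 0.50), and without P114 it was 0.65 (SE 0.11, adjusted p = 0.0037). For BAX the ratios were 0.35 and -0.22, -0.09 and -0.76, and -0.43 and 0.15 in the same order of lines, with a mean of -0.17 (adjusted p = 0.63).

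Among the BH3-only genes, BID and PMAIP1 separated the lines. BID, which links death receptors to the mitochondria after it is cut by CASP8, had levels of 11.98 and 11.80 in co-culture and monoculture of P114, 13.50 and 13.43 in CMT-U27, and 11.51 and 11.67 in CMT-U309. It was 2.98-fold higher in CMT-U27 than in P114 (adjusted p = 1.13e-05) and 3.67-fold higher than in CMT-U309 (adjusted p = 2.73e-06, limma). The BID probes with a signal well above background in all 12 channels gave 1.99-fold to 2.98-fold over P114 and 2.67-fold to 3.67-fold over CMT-U309. The probe shown, well above background in all 12 channels, spans chr27:48379452-48382060 on the minus strand of canFam2, a span longer than the probe itself.
BID: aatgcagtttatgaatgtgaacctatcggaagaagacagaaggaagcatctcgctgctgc
PMAIP1 (NOXA), which binds MCL1, had 8.97 and 8.83 in P114, 10.07 and 10.21 in CMT-U27, and 9.73 and 10.20 in CMT-U309. P114 was 2.36-fold below CMT-U27 (adjusted p = 0.000235) and 2.09-fold below CMT-U309 (adjusted p = 0.0011), and its groups did not overlap those of the other lines. The difference from CMT-U309 fell under a fold change of 2 without replicate 1 of P114, at a log2 value of -0.89, and without replicate 1 of all lines, at -0.93.

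BCL2L11, which encodes BIM, passed an unadjusted p under 0.05 in co-culture with ratios that parted by dye. They were -1.15 and 1.51 in P114, -0.13 and 1.40 in CMT-U27, and -0.54 and 1.11 in CMT-U309. The first value of each line, with co-culture RNA in Cy5, was below 0, and the other was above 1. The mean was 0.37 (SE 0.12, limma adjusted p = 0.50), but it became 1.34 from the arrays with co-culture RNA in Cy3 alone and -0.61 from those with it in Cy5 alone. Its mean levels of 10.85, 10.72 and 10.39 in P114, CMT-U27 and CMT-U309 were not called in any pair. BAD had ratios of -0.72 and 0.03 in P114, 0.81 and 0.51 in CMT-U27, and 0.56 and 0.12 in CMT-U309, with a mean of 0.22 (limma adjusted p = 0.65) and of 0.50 without P114 (adjusted p = 0.017). BMF was below 0 on all arrays, between -1.30 and -0.03, with a mean of -0.64 (limma adjusted p = 0.53) and a signal well above background only in CMT-U309. In the other BCL2-like genes, BCL2L13 had ratios of 0.08 and 0.01 in P114, -0.69 and -0.37 in CMT-U27, and -0.42 and -0.18 in CMT-U309, with a mean of -0.26 (limma adjusted p = 0.51) and of -0.42 without P114 (adjusted p = 0.018).

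For BCL2L14 the probes differed. Its brightest probe was called in no pair, whereas another probe was well above background in 4 of 4 channels of CMT-U27 and in none of the other lines. For that probe the level in CMT-U27 was at least 3.89-fold that of P114 and at least 8.44-fold that of CMT-U309, against the lowest signal well above background on each array. A further BCL2L14 probe was well above background in 3 of 4 channels of CMT-U27 only, with bounds of at least 1.42-fold and 3.08-fold. BCL2L15 was well above background in 1 of 12 channels, and no pair was called.

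Of the 5 inhibitors of apoptosis tested, only BIRC3 was called in a pair of lines. It was 2.46-fold higher in CMT-U27 than in CMT-U309 (adjusted p = 0.00053, limma), with mean levels of 9.39 ± 0.09 (P114), 10.25 ± 0.59 (CMT-U27) and 8.96 ± 0.25 (CMT-U309), each with the SD of n = 2 RNAs. The brightest probes of BIRC2, BIRC5 (survivin), BIRC6 and XIAP had no fold change over 2. BIRC3, which is switched on by NF-kappaB and puts ubiquitin on RIPK1, had nearly equal ratios on both arrays of a line. Its co-culture ratios were -0.09 and -0.16 in P114, 0.83 and 0.84 in CMT-U27, and 0.34 and 0.35 in CMT-U309. The ratio differed between the lines by more than between the arrays of a line, with a mean of 0.35 (SE 0.17, limma adjusted p = 0.50). The brightest BIRC3 probe spans chr5:32334061-32334235 on the minus strand of canFam2 and is shown because these ratios come from it.
BIRC3: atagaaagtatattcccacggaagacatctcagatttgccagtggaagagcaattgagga
The other BIRC3 probe, well above background in 9 of 12 channels, had ratios of 1.08 and -0.39, 1.09 and 0.39, and 0.68 and -1.64 in the same order, with a mean of 0.20. XIAP, which blocks CASP9, had ratios of -0.07 and -0.10 in P114, -0.62 and -0.25 in CMT-U27, and -0.36 and 0.03 in CMT-U309, with a mean of -0.23 (limma adjusted p = 0.57).

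Of 6 genes of the apoptosome and of mitochondrial release, HTRA2, ENDOG and DIABLO were higher in CMT-U27 than in both other lines. HTRA2, a protease that removes inhibitors of apoptosis, had levels of 11.07 and 11.35 in co-culture and monoculture of P114, 12.52 and 12.53 in CMT-U27, and 10.25 and 10.69 in CMT-U309. It was 2.48-fold higher in CMT-U27 than in P114 (adjusted p = 5.72e-05) and 4.15-fold higher than in CMT-U309 (adjusted p = 1.97e-06, limma). The other HTRA2 probe, at chr17:51679678-51679737 on the minus strand of canFam2, gave 2.63-fold and 3.69-fold and is shown as the one that reads through without a stop codon.
HTRA2: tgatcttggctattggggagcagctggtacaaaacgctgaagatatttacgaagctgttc
ENDOG, a nuclease that cuts DNA, had 10.52 and 10.50 in P114, 11.78 and 11.93 in CMT-U27, and 10.38 and 10.47 in CMT-U309, which is 2.54-fold and 2.69-fold higher in CMT-U27. DIABLO (SMAC), which binds inhibitors of apoptosis, was 2.22-fold and 3.34-fold higher in CMT-U27 by its brightest probe, while the other probe, at chr26:10161172-10161231, lies on the opposite strand of canFam2 and was called in no pair. AIFM1, an oxidoreductase of the mitochondria, had 12.66 and 12.58 in P114, 12.23 and 12.60 in CMT-U27, and 11.35 and 11.74 in CMT-U309. It was 2.10-fold higher in P114 than in CMT-U309 (adjusted p = 0.00059), and the other AIFM1 probes gave 2.07-fold and 1.86-fold. This call was lost in 6 of 15 alternatives, among them each other scaling and the fits without replicate 2, with a log2 difference of 0.88 at the lowest. AIFM2 had the reverse order, with 9.30 and 9.45 in P114, 10.01 and 9.75 in CMT-U27, and 10.74 and 10.90 in CMT-U309, and was 2.72-fold higher in CMT-U309 than in P114 (adjusted p = 8.94e-05). APAF1, the scaffold of the apoptosome, had mean levels of 6.56, 6.85 and 7.01 in P114, CMT-U27 and CMT-U309, with no pair called.

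**Figure D5:**
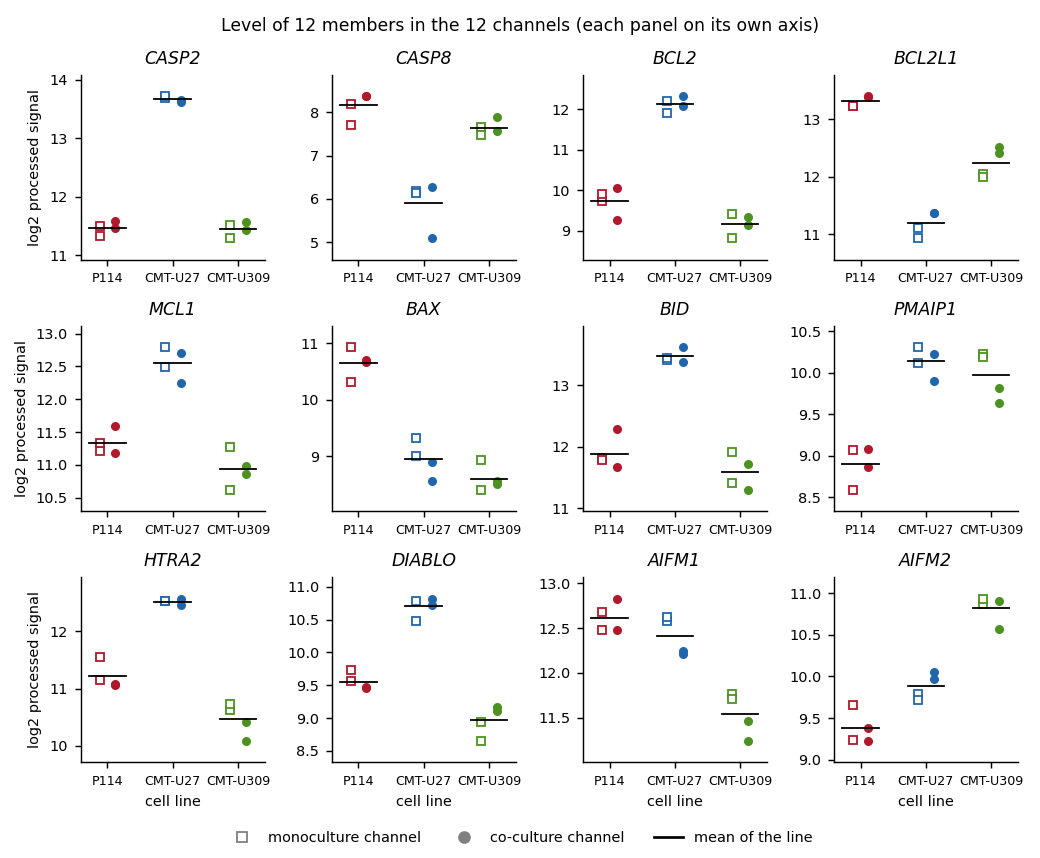
Log2 processed signal (y axis, each panel on its own scale) of 12 members in the 3 lines (x axis). Open squares are the 2 monoculture channels and filled circles the 2 co-culture channels of a line, and black lines are the mean of the line. CMT-U27 lies above the other lines for CASP2, BCL2, MCL1, BID, HTRA2 and DIABLO and below them for CASP8 and BCL2L1, and P114 lies above them for BAX and below them for PMAIP1.

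In co-culture the mitochondrial genes had small ratios. HTRA2 had -0.08 and -0.48 in P114, 0.05 and -0.06 in CMT-U27, and -0.55 and -0.32 in CMT-U309, with a mean of -0.24 (limma adjusted p = 0.51). Its other probe had a mean of 0.01. AIFM1 had 0.01 and 0.15 in P114, -0.33 and -0.42 in CMT-U27, and -0.53 and -0.25 in CMT-U309, with a mean of -0.23 (limma adjusted p = 0.53) and of -0.38 without P114 (adjusted p = 0.016). The other AIFM1 probes had means of -0.06 and -0.02.

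Of the death receptor complex, only TRADD and CFLAR were tested. CFLAR (FLIP), which keeps CASP8 inactive, was 2.28-fold higher in CMT-U27 than in CMT-U309 by its brightest probe (adjusted p = 0.0011, limma), while the other probe had a log2 difference of -0.36 (adjusted p = 0.29). TRADD, the adaptor under the TNF receptor, had mean levels of 9.19, 9.45 and 9.39 in P114, CMT-U27 and CMT-U309, with no pair called.

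From a list of 73 other genes of the pathway, 61 were tested. In co-culture 4 had a higher and 1 a lower value at an unadjusted p under 0.05 (limma), and none passed the thresholds of the methods, where the shares over all genes were 9.45% and 0.834%. Between the lines, 10 were higher and 10 lower in P114 than in CMT-U27, 10 higher and 5 lower in P114 than in CMT-U309, and 13 higher and 6 lower in CMT-U27 than in CMT-U309. Over all genes those shares were 11.3% and 15.4%, 7.31% and 8.03%, and 17.9% and 14.0% in the same order. CDKN1A, the p53 target that stops the cell cycle, had mean levels of 15.20 (P114), 11.83 (CMT-U27) and 11.34 (CMT-U309). BNIP3, which acts on mitochondria under low oxygen, had 15.01, 11.49 and 13.63, and its co-culture ratio was above 0 on all 6 arrays, between 0.38 and 0.92 (mean 0.60, SE 0.11, limma adjusted p = 0.50). PERP, a membrane protein of epithelia that p53 switches on, had 9.04, 12.89 and 7.06, in the order P114, CMT-U27 and CMT-U309. DAPK1, a kinase that promotes cell death, had 6.14, 8.34 and 4.66 in that order, TNFRSF21, a death receptor, had 6.09, 8.53 and 7.09, and RIPK2, a kinase under NOD receptors, had 10.56, 12.96 and 11.76. Both differences of CMT-U27 were called for these 4 genes.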

How the data were processed

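RNA of 3 cell lines in co-culture and monoculture was measured on 6 two-color arrays in dye-swaps, with groups taken from the sample labels. The authors deposited scanner output with the intensity of each spot in both dyes, made by Agilent Feature Extraction (10.10.1.1 per the file headers, 10.7.3.1 in the submitters' processing notes), and log10 ratios that equal those of the scanner output turned to co-culture over monoculture. The processed intensities deposited by the authors are background-subtracted and scaled between dyes, and dim values can be surrogates.

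Channels were brought to the same median after log2. Control spots, outlier spots and probes never brighter than an intensity of 10 were dropped. No array was left out for a member. Levels average the Cy5 and Cy3 channel of an RNA, and ratios average the dye-swap, which is 1 replicate. Fits used limma 3.58.1 in R 4.3.3 (lmFit, eBayes with a trend) across 40878 probes, with Benjamini-Hochberg adjustment over all of them: the mean ratio of 3 lines against 0, and levels of 6 RNAs by line with culture as covariate. The fits were tested on simulated data with 200 changed probes among 40878. In the co-culture fit, a log2 change of 2 was recovered at the thresholds of the methods for 197 probes, while 233 unchanged probes passed them too. At an adjusted p under 0.05, 74 of the 200 were recovered. A log2 change of 1 was recovered at the thresholds of the methods for 97 of 200 and at an adjusted p under 0.05 for 0. In the level fit of P114 against CMT-U27, of as many probes, an adjusted p under 0.05 with a fold over 2 was required. This recovered 67 of 200 at a log2 change of 2 and 0 of 200 at 1. In the data, 11.3% of genes were called higher and 15.4% lower in P114 than in CMT-U27. With only 200 changed probes the adjustment was stricter than in the data, so this recovery does not carry over. A level difference that was not called can still be real. For counts, each symbol stands by its brightest tested probe. Bounds rest, per array, on the dimmest probe still well above background (loess, Aquantile). Nothing says that replicates came from separate cultures beyond the lines, so p-values measure the spread between these samples.

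Of the 38 tested members, 2 enter the counts, medians and fits but are not reported here by name. Full values were given for members called in co-culture, the 5 largest ratios in each direction among probes well above background in all channels, up to 5 per pair of lines and direction, and those of the same sign on all arrays. Up to 6 other genes were named where a pair of lines differed by a fold over 4. The members and gene lists were chosen with earlier results of these data known. The gene table of the UU_Cfam_GSD_1.0 assembly was used for names only (39 of 40 member symbols matched), and coordinates are those of the array design. Alternatives were other background, scaling and filters, no trend, the methods' t-test, single arrays with and without the replicate block, each line or replicate left out, and the median over probes. Tables were handled with pandas 2.3.3 in Python 3.11.15 and drawn with matplotlib 3.10.9.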

Additional observations from a re-analysis of the deposited data

Results flagged for a closer look

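For 9 of 33 members well above background in all 12 channels, both arrays of a line lay on the opposite side of 0 from both arrays of another line, beside 26.9% of all such genes (the members are 27.3%). The difference was not tested for any of them, since each line gave a single pair of RNAs. The 12 differences given here, of 8 members, are of mean log2 co-culture ratios of the brightest probe. The other probes of DIABLO and BIRC6 kept the direction, while those of BIRC3, AIFM1 and CASP2 did not all do so. BIRC3 differed by 0.96 between CMT-U27 and P114 and by 0.47 between CMT-U309 and P114, with the lower value in P114. APAF1 differed by 0.58 between P114 and CMT-U27, with the lower value in CMT-U27. PMAIP1 differed by 0.62 and BIRC6 by 0.42 between P114 and CMT-U309, with the lower value in CMT-U309. BCL2L13 was higher in P114 by 0.57 than in CMT-U27 and by 0.34 than in CMT-U309. AIFM1 was higher in P114 by 0.47 than in CMT-U309 and by 0.46 than in CMT-U27. Another AIFM1 probe had P114 lowest, at -0.19, with 0.07 in CMT-U27 and 0.04 in CMT-U309. A further one had P114 highest, at 0.03, with -0.06 in CMT-U27 and -0.15 in CMT-U309. DIABLO was higher by 0.53 in CMT-U309 than in P114. CASP2 was lower in CMT-U27 by 0.19 than in P114 and by 0.17 than in CMT-U309. The other CASP2 probes differed among themselves. In the order P114, CMT-U27 and CMT-U309 they had -0.41, 0.11 and 0.09, then 0.15, -0.24 and -0.18, and then 0.04, 0.08 and 0.26. In 11 of these 12 differences P114 was on one side, and the arrays of P114 correlated at -0.39 across all probes and at -0.14 across those well above background. The part of dye in these differences was not tested.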

How the results depend on the processing

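No member passed the thresholds of the methods for co-culture under any alternative except the arrays with co-culture RNA in Cy3 alone, and the count ranged from 0 to 2 over the fits that left out a line or a replicate. The count at an unadjusted p under 0.05, 4 in the report, was 7 with 6 arrays as separate values and no replicate block, 9 with the replicate block, 2 with eBayes without a trend and 2 with normexp, and ranged from 2 to 13 over the fits that left out a line or a replicate, with the highest value without P114. At an adjusted p under 0.05 that range was 0 to 8, again with the highest value without P114. BCL2L11 ranged from -0.61 to 1.34 over those fits, and reversed at -0.08 without replicate 2 of P114. The cause was not tested. Fits that left out 1 array of P114 were added after the data were seen.

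The replicate number names the dye orientation and nothing in the labels pairs the RNAs. Correlations of same-numbered arrays between lines ran from -0.22 to 0.61 for ratios, not all over 0.1. For levels, 21 members were called in some pair both with and without the replicate block, beside 22 in the report.

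Level counts moved under normexp with loess and Aquantile, where 11 members were called in some pair, 4 higher in CMT-U27 than in P114, 1 higher in P114 than in CMT-U309, 6 higher in CMT-U27 than in CMT-U309 and 2 higher in CMT-U309 than in CMT-U27. Scaling to the 75th percentile left 2 higher in P114 than in CMT-U309. Over the fits that left out a line or a replicate, members higher in P114 than in CMT-U27 ranged from 3 to 5. Of the 37 called level differences, 13 stayed past the thresholds in every alternative, among them all those of BAX, BCL2, BID and CASP2. Each CASP8 difference stayed past them in 14 of 15, with log2 values of 0.90 (P114 minus CMT-U27) and -0.63 (CMT-U27 minus CMT-U309) at the smallest. For CMT-U27 minus CMT-U309, CASP4 stayed in 13 of 15 (-0.37) and CFLAR in 12 of 15 (0.41). CASP10 in P114 minus CMT-U309 stayed in 14 of 15 (0.44), and DIABLO in P114 minus CMT-U27 in 12 of 15 (-0.59). The level of CASP14 in P114 minus CMT-U27 ranged from -3.42 to 1.12 over the fits that left out a replicate, and reversed without replicate 2. Dim probes (CASP14, BMF, BCL2L14 and BCL2L15) are limited by the background of the arrays.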
